A study of Mus musculus with 8 samples.

Results

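B cells of mice homozygous for the 3'PAL deletion were compared with wild-type B cells of the same state, across all genes, at the immunoglobulin loci and in the response to lipopolysaccharide (LPS). The comparison used 4 of the 8 libraries of the study: 3'PAL stimulated, 3'PAL resting, wild-type stimulated and wild-type resting, 1 library each. The other 4 came from mice homozygous for the hs3b-hs4 deletion or for the 3'RR deletion in the same states and are used where a test needs them. All genotypes were on a mixed background that the labels write as 129/C58BL/6. Splenic B cells were enriched over a density gradient, CD43-positive cells were then depleted, and every library came from a pool of 4 animals. Resting cells were used at once. Stimulated cells were cultured for 48 hours with 5 µg/mL LPS, a ligand of TLR4 from the outer membrane of bacteria, and passed over a gradient again. The sources used here do not say whether the pools of a genotype share animals between states or whether the wild-type animals were littermates.

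The immunoglobulin heavy chain (IgH) locus carries its constant genes in a row, with Ighm first and Igha last, and the 3' regulatory region (3'RR) lies behind Igha. This cluster of enhancers drives transcription of the rearranged heavy chain gene in activated B cells and plasma cells, and it is needed for the germline transcription that precedes class switching to IgG. Part of the cluster is arranged as inverted repeats around the enhancer hs1,2, which makes that part a large palindrome. The 3'PAL deletion disturbs this arrangement and leaves the enhancers in place, so the comparison asks what depends on the arrangement. The removed segment holds no gene of the count table, and no count can therefore check the genotype label.

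The membrane and the secreted form of the IgM heavy chain are made from Ighm by alternative processing at the 3' end. The sequences that tell them apart are shown because the results on Ighm rest on them. Both forms share 1305 coding bases, the last 30 of which are printed in lower case, and the capitals are the bases found in 1 form only. On the minus strand of GRCm38 the secreted form has 59 coding bases of its own (chr12:113420870-113420928), and the membrane form has 122, in a block of chr12:113418953-113419068 and a block of chr12:113418829-113418834.
Ighm secreted form: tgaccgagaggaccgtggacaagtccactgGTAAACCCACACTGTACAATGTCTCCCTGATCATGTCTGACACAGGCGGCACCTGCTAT
Ighm membrane form: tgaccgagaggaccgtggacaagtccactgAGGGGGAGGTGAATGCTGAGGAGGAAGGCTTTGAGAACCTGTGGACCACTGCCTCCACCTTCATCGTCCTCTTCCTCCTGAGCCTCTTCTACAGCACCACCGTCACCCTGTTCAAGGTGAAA

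Total gene counts were 28432227 and 25676159 in the stimulated and resting 3'PAL libraries and 28785192 and 17883683 in the stimulated and resting wild-type libraries. Levels are given as CPM, counts relative to a library size adjusted by the trimmed mean of M values, and 3 counts correspond to 0.102 to 0.163 CPM. All 32 genes of a B cell identity list passed the filter on low counts. The resting wild-type library stood apart from the other 7 in holding 1.94% of its counts in AY036118, which lies over ribosomal RNA sequence, where no other library exceeded 0.0842%. It also held 15.4% of its kallisto estimated counts in Lars2, where no other library exceeded 1.7%. Red cell transcripts also differed: the 14 erythroid markers, of which 12 were tested, summed to 541.7 and 22230 CPM in stimulated and resting 3'PAL cells and to 434 and 3380 CPM in stimulated and resting wild-type cells. Megakaryocyte and platelet markers summed to 46.2 CPM in resting 3'PAL and 83.84 CPM in resting wild-type cells, and monocyte and macrophage markers to 451.4 and 601.2 CPM. Only 5 of 12 T cell, 2 of 8 NK cell and 0 of 9 neutrophil markers passed the filter on low counts.

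Stimulated 3'PAL cells held less Ighm RNA than stimulated wild-type cells, and the shortfall was in the secreted form. Ighm stood at 6423 CPM in 3'PAL and 9522 CPM in wild-type stimulated cells, a ratio of 0.675 (95% interval 0.671 to 0.679). In resting cells it stood at 2497 CPM in 3'PAL and 2971 CPM in wild type, a ratio of 0.84 (0.831 to 0.85). With LPS its level was 2.57-fold higher in 3'PAL cells and 3.21-fold higher in wild-type cells. These intervals, and all that follow on ratios, are exact conditional binomial intervals. They cover counting error alone, because a value rests on 1 library and PCR duplicates are no independent molecules. In bulk samples fewer cells of a type and less RNA per cell cannot be told apart. Over both states the log2 fold change of Ighm was -0.41 ± 0.162 (SE), and edgeR's quasi-likelihood test gave an unadjusted p of 0.0389 and an adjusted p of 0.528, so it did not pass after adjustment over all genes.

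Estimated counts of the secreted form were 6028 CPM in stimulated 3'PAL and 10620 CPM in stimulated wild-type cells, a ratio of 0.567 (0.564 to 0.571), while those of the membrane form were 2764 CPM in 3'PAL and 2454 CPM in wild type, a ratio of 1.13 (1.11 to 1.14). In resting cells the secreted form stood at 833.9 CPM in 3'PAL and 1196 CPM in wild type (ratio 0.697, 0.683 to 0.712), and the membrane form at 2421 CPM and 2560 CPM (ratio 0.946, 0.933 to 0.958). The membrane form thus lay near wild type in both states, and the secreted form lay below wild type in both. As a share of the Ighm estimated counts, the secreted form made up 68.56% in stimulated 3'PAL cells and 81.23% in stimulated wild-type cells. The hs3b-hs4 deletion cells had 84.73% and the 3'RR deletion cells 60.95%, so the 3'PAL share lay between those of the other deletions. At rest the share was 25.62% in 3'PAL, 72.86% in hs3b-hs4, 24.05% in 3'RR and 31.83% in wild-type cells. The hs3b-hs4 library thus stood further from wild type at rest than the 3'PAL library did in either state. Each of these values is from 1 library, and no test was possible within a state. The Lars2 counts of the resting wild-type library enter the library size behind its estimated CPM, and library size cancels from the share within Ighm.

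**Figure D1:**
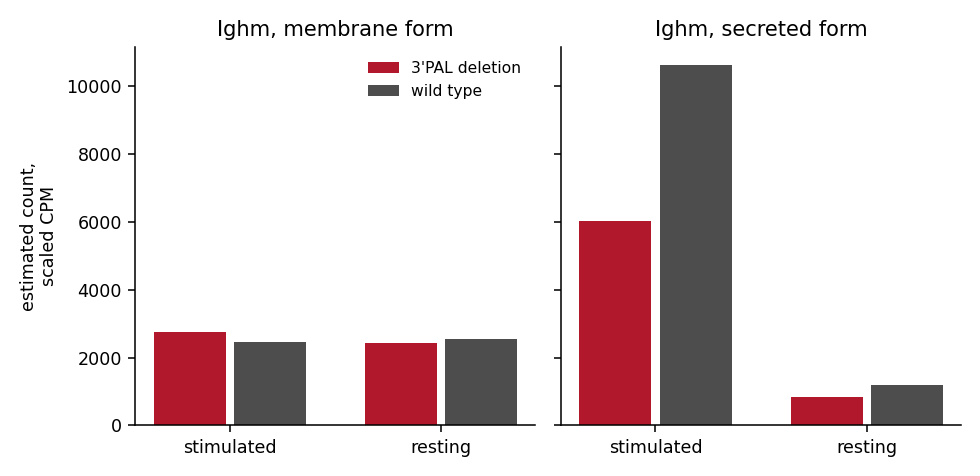
Estimated counts of the membrane form (left panel) and the secreted form (right panel) of Ighm, in scaled CPM, in stimulated and resting cells, 1 library per bar, with 3'PAL in red and wild type in grey. The secreted form of stimulated cells is the bar pair that differs most, with 6028 CPM in 3'PAL and 10620 CPM in wild type.

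Genes for factors that process the Ighm 3' end were mostly lower in stimulated 3'PAL cells by small amounts, and none was called. EdgeR's test over both states called 40 genes higher and 22 lower in 3'PAL, 0.29% and 0.16% of the 13791 genes tested. Of 27 genes on a list of such factors 0 were among them. Their median log2 difference in stimulated cells was -0.19, against -0.01 over all genes, with 22 of the 27 lower than in wild type, and 3'PAL was the lowest of the 4 genotypes for 19, where it was the lowest for 35.2% of all genes. In resting cells the median was 0.03. The member with the lowest p was Ell2, an elongation factor that favours the secreted form in plasma cells. Ell2 stood at 204.6 CPM in 3'PAL and 134.4 CPM in wild-type stimulated cells, and at 60.62 and 38.87 CPM in resting cells. Its log2 fold change was 0.62 ± 0.115 (SE) with an adjusted p of 0.0988 in edgeR's test. Ell2 was thus higher in 3'PAL in both states without passing the threshold, and its part in the secreted share was not tested. On the list of octamer, CTCF and cohesin factors, which bind the 3'RR or shape loops at the locus, 0 of 31 genes were called, and the median differences were -0.03 in stimulated and -0.02 in resting cells.

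The IgG genes did not move together. Ighg3, the gene most used by LPS-activated B cells, stood at 34.09 CPM in 3'PAL and 97.62 CPM in wild-type stimulated cells, a ratio of 0.349 (0.325 to 0.376), and at 33.51 CPM and 30.94 CPM in resting cells, a ratio of 1.08 (0.972 to 1.21). With LPS its level changed 1.02-fold in 3'PAL cells (0.926 to 1.12) and 3.16-fold in wild-type cells (2.88 to 3.46), and only the first interval includes 1. Ighg2b, also induced by LPS, went the other way. It stood at 63.65 CPM in 3'PAL and 40.07 CPM in wild-type stimulated cells, a ratio of 1.59 (1.47 to 1.71), and at 11.65 and 14.3 CPM in resting cells, and with LPS it stood 5.46-fold higher in 3'PAL (4.82 to 6.21) and 2.8-fold higher in wild-type cells (2.45 to 3.22). The response terms of both genes had unadjusted p values of 0.0456 for Ighg3 and 0.0334 for Ighg2b in edgeR's test of the 3'PAL response against that of the other 3 genotypes, and neither passed after adjustment. IgG genes share similar sequence, so reads could be split between them by the counting.

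Ighg2c was the IgH constant gene called over both states, and it had few counts in 3'PAL cells. It had 32 counts in 3'PAL and 172 in wild-type stimulated cells, and 18 and 212 in resting cells, ratios of 0.18 (0.12 to 0.264) and 0.0645 (0.0375 to 0.104). The log2 fold change was -3.18 ± 0.42 (SE), with an adjusted p of 0.0379 in edgeR's test. The hs3b-hs4 deletion cells were as low, with 0.6302 CPM in stimulated and 0.6246 CPM in resting cells, against 1.093 and 0.7438 CPM in 3'PAL cells. The 3'RR deletion cells were lower still, with 0 CPM in stimulated and 0.0352 CPM in resting cells. Wild type was thus the high genotype of the 4 for this gene. The background was mixed, and which allele of the gene each pool carried was not tested.

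Of the remaining heavy chain genes Ighg1, Igha and Ighe were at low levels in stimulated cells, and Ighd was higher in 3'PAL than in wild type there. Ighg1 stood at 4.134 CPM in 3'PAL and 7.466 CPM in wild-type stimulated cells (ratio 0.554, 0.439 to 0.696), and its resting ratio of 0.803 (0.634 to 1.02) included 1. Igha, the IgA heavy chain gene, had ratios of 0.647 (0.348 to 1.18) in stimulated and 0.932 (0.798 to 1.09) in resting cells. Ighe had 8 and 4 counts in stimulated 3'PAL and wild-type cells and 2 and 21 in resting ones, too few for more than the counts. Ighd, the IgD heavy chain gene, was estimated from transcripts at 164.9 CPM in 3'PAL and 98.11 CPM in wild-type stimulated cells (ratio 1.68, 1.59 to 1.78), and at 619.4 and 694.2 CPM in resting cells (ratio 0.892, 0.869 to 0.916). For comparison, the 4 IgG genes summed to 103 CPM in stimulated 3'PAL, 33.44 CPM in hs3b-hs4 deletion, 0.2212 CPM in 3'RR deletion and 151.2 CPM in wild-type cells.

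Heavy chain V segments were mostly lower and kappa V segments mostly higher in 3'PAL cells. Of the 89 heavy chain V segments tested, 71 were lower in 3'PAL cells in both states. The summed ratio of the heavy chain V segments was 0.636 (0.627 to 0.645) in stimulated and 0.863 (0.838 to 0.888) in resting cells. Which heavy chain alleles each pool carried was not tested for these segments either. Of the 95 kappa V segments, 86 were higher in both states. The J segments did not follow as clearly, with 1 of 4 heavy chain and 4 of 5 kappa J segments higher in stimulated cells and 2 and 1 in resting cells. The kappa constant gene Igkc stood at 4355 CPM in 3'PAL and 2212 CPM in wild-type stimulated cells, and at 1591 and 878.9 CPM in resting cells, ratios of 1.97 (1.95 to 1.99) and 1.81 (1.78 to 1.84). Its adjusted p over both states was 0.258 in edgeR's test. The wild-type libraries held the lowest Igkc level of the 4 genotypes in each state, with 3336 CPM in hs3b-hs4 and 4193 CPM in 3'RR stimulated cells. Iglc2, a lambda constant gene, had ratios of 1.43 (1.38 to 1.47) in stimulated and 0.951 (0.912 to 0.991) in resting cells.

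**Figure D2:**
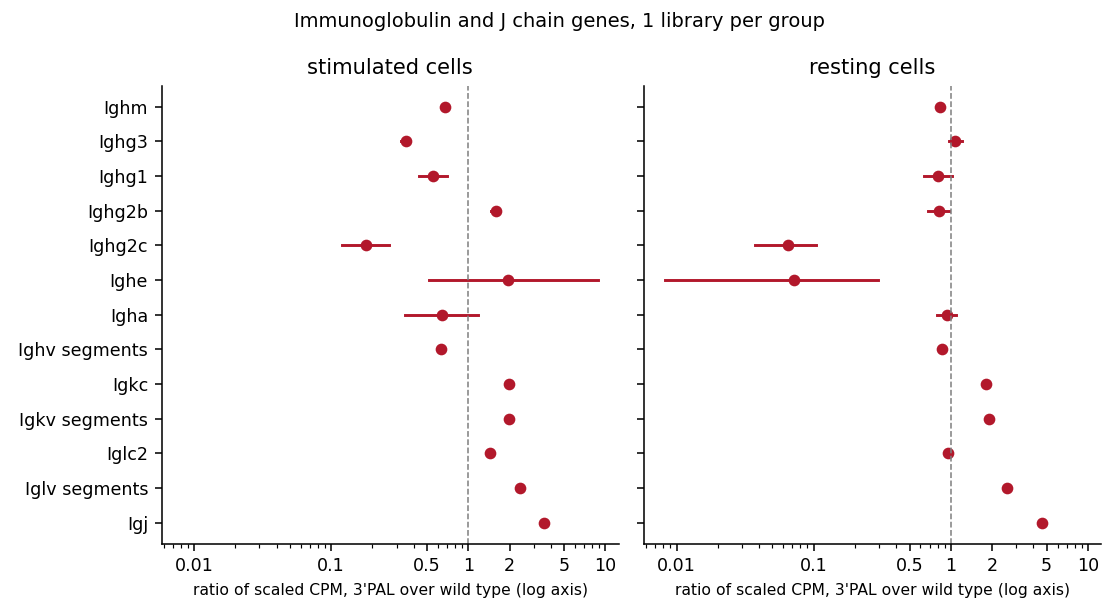
Ratio of scaled CPM of 3'PAL over wild type, on a log axis, for immunoglobulin genes, summed V segments and the J chain gene (listed as Igj) in stimulated (left) and resting (right) cells, with 95% intervals for counting error. Heavy chain genes lie mostly left of 1 and light chain genes mostly right, and Igj reaches 3.54 in stimulated and 4.64 in resting cells.

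The J chain joins IgM monomers into the secreted pentamer. Its gene, listed as Igj, stood at 588.1 CPM in 3'PAL and 166.1 CPM in wild-type stimulated cells, and at 608.7 and 131.1 CPM in resting cells, with an adjusted p of 0.184 in edgeR's test over both states. Wild type was the lowest of the 4 genotypes in both states. On a list of 21 J chain and plasmablast effector genes, 18 of the 20 tested were higher in stimulated and 17 in resting 3'PAL cells (medians 0.563 and 0.211). Of these genes 0 were called over both states, where 0.45% of all genes were, so the 0 says little about the list. Txndc5, a disulfide isomerase of the endoplasmic reticulum, stood at 512.5 CPM in 3'PAL and 230.1 CPM in wild-type stimulated cells, and at 99.68 and 75.46 CPM in resting cells. Against the mean of the other 2 deletions the list medians were 0.029 and -0.16. Wild type was the lowest genotype for 17 of the 20 genes in stimulated cells and for 14 in resting cells. The 6 plasma cell markers summed to 761.3 and 666 CPM in stimulated and resting 3'PAL cells and to 302.9 and 192 CPM in wild-type cells, with Igj the main part of these sums. The part of plasma cell content in these values was not tested.

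Genes beside the IgH locus on chromosome 12 were not called: 0 of the 22 tested passed over both states, where 0.45% of all genes did, with medians of -0.094 in stimulated and 0.001 in resting cells. The 34 class switch and hypermutation genes also had 0 calls. At that share of all genes, 0 calls in lists of these sizes says little about them. Their median in stimulated cells was -0.241, with 25 of 34 lower in 3'PAL, and 3'PAL was the lowest of the 4 genotypes for 21 of them, where it was lowest for 35.2% of all genes. Examples are Rif1, which guards broken DNA ends from resection, at 148.2 CPM in 3'PAL and 243.1 CPM in wild type, and Polh, a polymerase of hypermutation, at 34.03 and 54.51 CPM in stimulated cells. In resting cells Rif1 stood at 83.44 and 93.46 CPM and Polh at 12.4 and 16.8 CPM, so the pairs were closer there.

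A wide difference in the LPS response lay in interferon-stimulated genes, which type I interferon induces and which LPS can induce through the TRIF arm of TLR4 signalling. Within a state, genes were described by a size rule, a difference of at least 1 on the log2(CPM + 1) scale with 10 CPM or more in whichever library was higher. In stimulated cells, 21 of the 33 interferon-stimulated genes with enough signal were higher in 3'PAL by this rule and 0 were lower, where the rule took 2.22% of all 8295 genes as higher and 0.603% as lower. In resting cells 2 of 31 were higher and 8 lower, where it took 2.01% and 1.51% of 8267 genes. The median log2 difference was 1.17 in stimulated and -0.61 in resting cells. The difference of the LPS response was past the rule for 27 of 35 genes upward and 1 downward, against 3.1% and 2.39% of 9040 genes, with a median of 1.55 against -0.01 over all genes tested.

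The values behind these counts show genes that stood higher after LPS in 3'PAL cells and lower after LPS in wild-type cells. Irf7, the transcription factor that amplifies the interferon response, stood at 61.8 CPM in 3'PAL and 6.515 CPM in wild-type stimulated cells, and at 21.98 and 34.85 CPM in resting cells. Ifit3, which binds foreign RNA together with its relatives, stood at 21.73 and 2.958 CPM in stimulated and at 6.488 and 21.64 CPM in resting cells. In both genes wild type was the lower genotype after stimulation and the higher one at rest. Oas2 and Oas3 make the oligoadenylates that switch on RNase L. Oas2 stood at 9.737 CPM in 3'PAL and 1.021 CPM in wild-type stimulated cells, and at 2.232 and 13.48 CPM in resting cells. Oas3 stood at 16.06 and 1.831 CPM in stimulated and at 5.662 and 10.93 CPM in resting cells. Ifi44 (20.19 and 2.113 CPM in stimulated, 4.918 and 14.95 CPM in resting cells) and the receptor chaperone Rtp4 (12.26 and 1.796 CPM, 2.727 and 8.971 CPM) crossed in the same way. Irf7 exons overlap those of Phrf1 on the other strand, and the sources used here do not give the strand setting of the counting.

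Other members differed without crossing. Isg20, an exonuclease against viral RNA, was the member called over both states, with 27.84 CPM in 3'PAL and 9.931 CPM in wild-type stimulated cells, 26.16 and 9.243 CPM in resting cells, a log2 fold change of 1.49 ± 0.153 (SE) and an adjusted p of 0.0164 in edgeR's test. Isg15, a ubiquitin-like modifier, stood at 38.6 and 17.99 CPM in stimulated and 8.43 and 4.241 CPM in resting cells. Igtp, a GTPase acting on pathogen vacuoles, stood at 29.11 and 11.73 CPM in stimulated and 15.79 and 13.32 CPM in resting cells. Rsad2, which makes an antiviral nucleotide, was high at rest in 3'PAL cells, with 2.084 and 0.5282 CPM in stimulated and 159.6 and 23.87 CPM in resting cells. Across the list the 3'PAL level was thus the higher one after stimulation for 34 of 36 genes.

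All 4 genotypes were ordered by these genes. The median LPS response of the 36 genes was 1.61 on the log2 scale in 3'PAL, 0.89 in hs3b-hs4 deletion, -0.03 in 3'RR deletion and -0.59 in wild-type cells. In stimulated cells 3'PAL was the highest genotype for 27 of the 36 genes, where it was highest for 27.6% of all genes, and wild type was the lowest for 30. Their summed level in stimulated cells was 2573 CPM in 3'PAL, 1947 CPM in hs3b-hs4 deletion, 2022 CPM in 3'RR deletion and 1364 CPM in wild-type cells, and in resting cells 1567, 1419, 1995 and 1748 CPM in the same order. With the mean of the other 2 deletions in place of wild type, a setting chosen after seeing the data, the median difference of 3'PAL was 0.54 in stimulated and -0.30 in resting cells. After stimulation 8 of 33 genes were past the rule upward, as were 124 of all 8270 genes with enough signal in that setting. The direction was therefore the same without the resting wild-type library, and the size was smaller. In edgeR's test of the 3'PAL response against the other 3 genotypes, 13 of the 36 genes had an unadjusted p under 0.05 upward and 0 downward, where 4.73% and 4.58% of all genes did. No gene of the whole table passed that test after adjustment, at a smallest adjusted p of 0.265, while 1283 genes had an unadjusted p under 0.05 and DESeq2 called 28.

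The promoters of these genes often hold the interferon-stimulated response element, and 3 are shown because they belong to genes just described. RefSeq windows of 300 bases, from 250 before to 50 after the gene start on GRCm38.p6, were found for 25 of the 36 genes. The motif, GAAA followed after any 2 bases by GAAA and searched on both strands, was in 15 of these 25 (60.0%), and in 3.99% of the 27025 genes with a window. Of the genes named above that have a window, Irf7, Ifi44 and Isg20 hold no match in it. In the lines that follow the motif is in capitals, in the strand sense of the gene, and reads as its reverse complement where it lies on the opposite strand. The positions are chr19:34583353-34583436 (plus strand) for Ifit3, chr5:120777705-120777754 (minus strand) for Oas3 and chr11:58199502-58199551 (plus strand) for Igtp.
Ifit3: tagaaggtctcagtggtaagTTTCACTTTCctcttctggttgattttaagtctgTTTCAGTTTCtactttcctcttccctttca
Oas3: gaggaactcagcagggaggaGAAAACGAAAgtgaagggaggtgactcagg
Igtp: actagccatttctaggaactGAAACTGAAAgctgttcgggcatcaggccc

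The LPS response as a whole was smaller in 3'PAL cells. Of 9040 genes with at least 10 CPM in a library, 2355 differed by at least 1 between the states on the log2 scale in 3'PAL cells and 3319 in wild-type cells. The 2090 genes common to both were 88.7% of the 3'PAL and 63% of the wild-type genes. Over the 9331 genes with 10 CPM in any of the 8 libraries, the numbers were 2502 in 3'PAL, 3022 in hs3b-hs4 deletion, 2820 in 3'RR deletion and 3492 in wild-type cells, so 3'PAL had the fewest. Genes sorted by the other 2 deletions show where the gap lay. Among the 1309 genes that stood at least 1 higher after LPS in both of them, the median response was 1.33 in 3'PAL and 1.75 in wild-type cells. Only 14.1% of these genes were higher in 3'PAL than in wild type after stimulation, at a median difference of -0.36, and 72.4% were higher at rest, at a median of 0.12. Among the 1104 genes that stood at least 1 lower in both, the median response was -1.64 in 3'PAL and -1.90 in wild-type cells. The count stayed between 2355 and 2523 genes in 3'PAL and between 3306 and 3504 in wild type under the 4 other scalings and quantifications.

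Cell cycle genes followed this pattern. In stimulated cells all 35 listed genes were lower in 3'PAL, at a median of -0.48, and in resting cells 33 were higher, at a median of 0.43. With total counts as the only scaling these numbers were 34 and 28. The difference of the response had a median of -0.86, and 13 of 35 genes were past the rule downward, as were 2.39% of all genes. In resting cells the summed level was 1433 CPM in 3'PAL, 827.3 CPM in hs3b-hs4, 1551 CPM in 3'RR and 967.8 CPM in wild-type cells, beside erythroid marker sums of 22230, 10900, 13790 and 3380 CPM in the same order, and the part of red cell precursors in these levels was not tested. Mki67, which marks dividing cells, stood at 1487 CPM in 3'PAL and 1559 CPM in wild-type stimulated cells, and at 376.2 and 138.1 CPM in resting cells. Mcm3, a subunit of the replicative helicase, stood at 286.4 and 413 CPM in stimulated and 64.05 and 60.3 CPM in resting cells. Gins2, which joins that helicase, stood at 20.43 and 29.65 CPM in stimulated and 2.438 and 2.773 CPM in resting cells. The Mki67 gap lay at rest and the gaps of Mcm3 and Gins2 after stimulation. Among the 4 genotypes 3'PAL was the lowest in stimulated cells for 34 of the 35 genes, where it was the lowest for 35.2% of all genes. The median LPS response was 2.38 in 3'PAL, 3.64 in hs3b-hs4 deletion, 2.50 in 3'RR deletion and 3.32 in wild-type cells, so the 3'RR deletion was close to 3'PAL. In edgeR's test of the response term, 6 of the 35 genes had an unadjusted p under 0.05 downward, as did 4.58% of all genes, Mcm4 with 0.0225 among them. Over both states 0 of the 35 were called, where 0.45% of all genes were.

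Ribosome biogenesis genes, which supply the growing cell with ribosomes, were lower in all 26 cases in stimulated 3'PAL cells, at a median of -0.57, and near wild type at rest, at a median of 0.05 that turned to -0.07 with total counts only. Their summed level was 4608 CPM in 3'PAL and 7089 CPM in wild-type stimulated cells, and 2676 and 2673 CPM in resting cells. Ncl, the nucleolar protein nucleolin, stood at 559 and 936.1 CPM in stimulated and 366.3 and 443.3 CPM in resting cells. Ubtf, a transcription factor of RNA polymerase I, stood at 128.3 and 185.7 CPM in stimulated and 128.2 and 133.7 CPM in resting cells. Wild type was the highest genotype for 25 and 3'PAL the lowest for 24 of the 26 genes after stimulation. With the mean of the other 2 deletions in place of wild type all 26 were still lower in 3'PAL, at a median of -0.35. For 11 of the 26 the response term had an unadjusted p under 0.05 downward, as for 4.58% of all genes, and 0 were past the size rule, so each difference was small.

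Immediate early and stress genes, which isolation of cells switches on and which stood lower after culture in all genotypes, were at a higher level higher in stimulated 3'PAL cells. Of 28 genes 24 were higher there, at a median of 0.50, with 4 of 18 past the size rule upward, as were 2.22% of all genes. In resting cells 12 of the 28 were higher and the median was -0.09. Fos, a subunit of the AP-1 factor, stood at 32.15 CPM in 3'PAL and 8.276 CPM in wild-type stimulated cells, and at 323.3 and 250.4 CPM in resting cells. Dusp1, a phosphatase of MAP kinases, stood at 26.65 and 13.63 CPM in stimulated and 165.2 and 137.8 CPM in resting cells. Ppp1r15a, which restores translation after stress, stood at 48.99 and 25.35 CPM in stimulated and 516.8 and 382.2 CPM in resting cells. These 3 genes were higher in 3'PAL at rest as well, unlike most of the list. The median LPS response was -2.24 in 3'PAL, -3.16 in hs3b-hs4 deletion, -3.27 in 3'RR deletion and -3.34 in wild-type cells, and 10 of the 28 genes had an unadjusted p under 0.05 upward for the response term and 1 downward, against 4.73% and 4.58% of all genes.

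**Figure D3:**
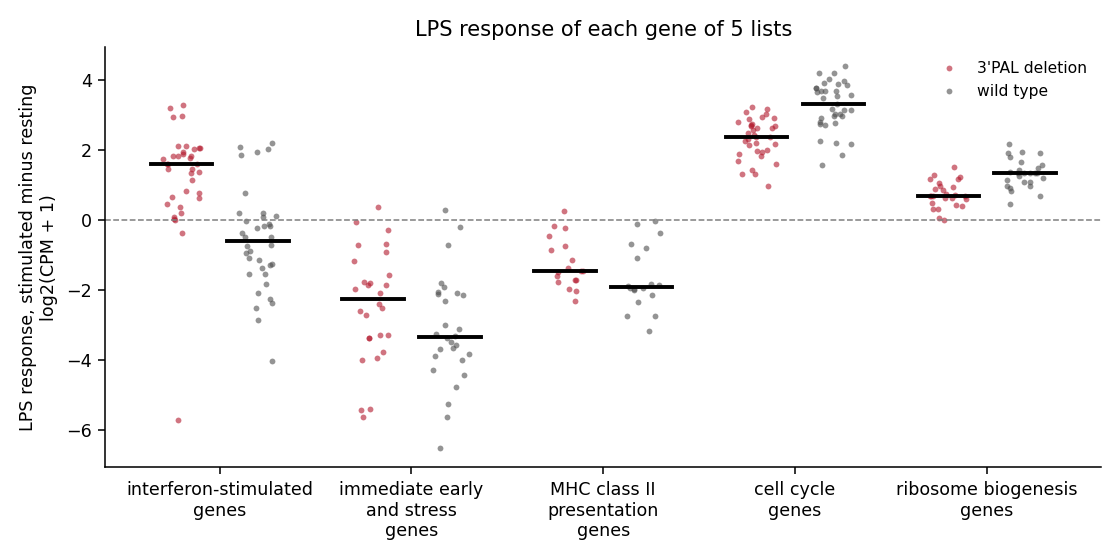
LPS response of each tested gene of 5 lists, as stimulated minus resting log2(CPM + 1), in 3'PAL (red) and wild-type (grey) cells, with the median of the list as a black bar and 1 library per genotype and state. The medians of the interferon-stimulated genes lie at 1.61 in 3'PAL and -0.59 in wild type, and those of the cell cycle genes at 2.38 and 3.32.

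Genes of MHC class II presentation, which activated B cells turn down as they become plasmablasts, were higher in stimulated 3'PAL cells for 17 of 18 members, at a median of 0.40. March1, a ubiquitin ligase of class II molecules, was the member past the size rule, with 47.28 CPM in 3'PAL and 21.69 CPM in wild-type stimulated cells, and 193.9 and 201.3 CPM in resting cells. H2-Ob, a chain of the loading regulator H2-O, stood at 155.1 and 84.76 CPM in stimulated and 602.5 and 567.4 CPM in resting cells. Wild type was the lowest genotype for 16 of the 18, and the median of 3'PAL against the mean of the other 2 deletions was 0.06.

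Few genes differed by the size rule in both states. In stimulated cells the rule took 184 genes higher and 50 lower in 3'PAL, and in resting cells 166 and 125, which became 128 and 153 with total counts as the only scaling. For the difference of the LPS response it took 280 higher and 216 lower, which became 411 and 147 with total counts only. That scaling moved the median of all genes to -0.11 in resting cells and to 0.15 for the response. Of 7522 genes with enough signal in each state, 25 (0.332%) were higher and 17 (0.226%) lower in 3'PAL in both, which was 17.9% of the genes past the rule in stimulated and 14.4% of those in resting cells. A further 11 were past the rule in opposite directions. The log2 differences of the 2 states correlated at 0.155 across genes (Pearson), which are not independent replicates.

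**Figure D4:**
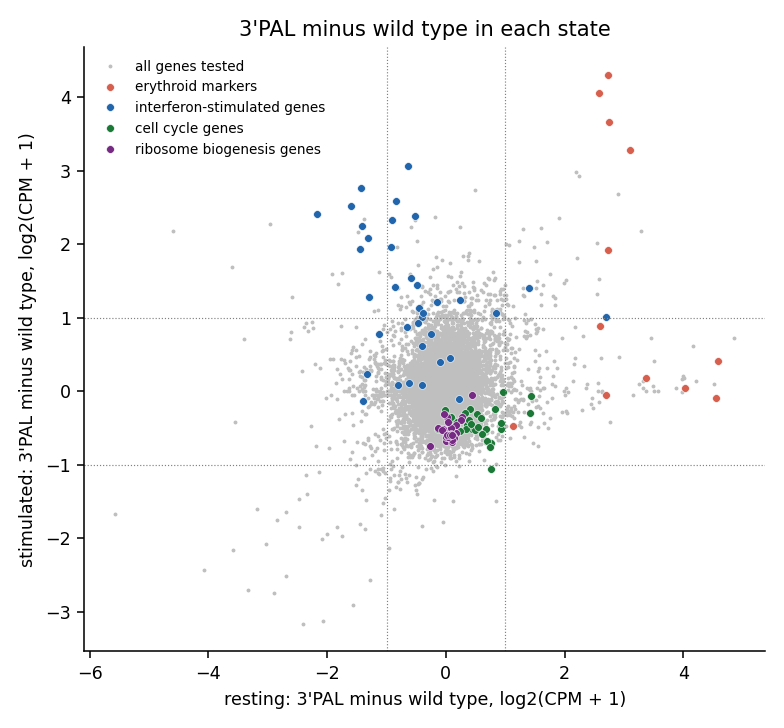
Log2 difference of 3'PAL minus wild type in resting (horizontal) and stimulated (vertical) cells for all 13791 genes tested, on log2(CPM + 1), with 4 lists coloured and dotted lines at the size rule. Interferon-stimulated genes lie mostly at the upper left, cell cycle genes below 0 on the vertical axis, and erythroid markers at the right.

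Over both states edgeR's test called 62 genes (0.45% of those tested), and 59 of them had the same direction in both states. In this test a pool difference that held in both states cannot be told apart from an effect of the deletion. An unadjusted p under 0.05 was reached upward by 5.05% and downward by 3.86% of the genes tested. The calls depended on single libraries. Without the resting 3'PAL library 0 genes were called, at a smallest adjusted p of 0.0641 and with 2212 genes at an unadjusted p under 0.05. Without the resting wild-type library 1 gene was called, Mir692-3, a microRNA gene inside Ftl2, named here after its values were seen. It stood at 2.801 CPM in 3'PAL and 32.12 CPM in wild-type stimulated cells, and at 4.876 and 23.65 CPM in resting cells. All 62 genes kept their direction in both of these fits. DESeq2 called 241 genes, 58 of the 62 among them.

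Red cell genes made up part of the genes higher in 3'PAL. Of 12 erythroid markers tested, 7 were called higher, as were 0.29% of all genes, and all 12 were past the size rule upward at rest, as were 2.01% of all genes, at a median of 2.74. With total counts only, 11 of the 12 had enough signal for the rule, and all 11 were past it. Slc4a1, the anion exchanger of the red cell membrane, stood at 0.3758 CPM in 3'PAL and 0.03521 CPM in wild-type stimulated cells, the second value at 1 count, and at 440.6 and 17.34 CPM in resting cells, with an adjusted p of 0.00112 in edgeR's test. Alas2, which starts heme synthesis, stood at 4.134 and 0.3521 CPM in stimulated and 415.6 and 61.49 CPM in resting cells. Hba-a2 and Hbb-bt, adult globin genes with near-identical copies, were called as well. In resting cells 3'PAL was the highest and wild type the lowest genotype for 11 of the 12 markers, and the deletions in between summed to 10900 CPM in hs3b-hs4 and 13790 CPM in 3'RR deletion cells. Other genes called higher, off this list, had the same order at rest as Slc4a1. Aqp1 stood at 66.49 CPM in 3'PAL, 5.895 CPM in hs3b-hs4, 64.99 CPM in 3'RR and 1.957 CPM in wild-type resting cells. Epb4.2 stood at 58.97, 6.676, 47.49 and 2.229 CPM in the same order. The part of red cell content in these calls was not tested. Removing the globin genes, AY036118, Lars2 and mitochondrial genes before scaling and testing gave 48 calls among 13764 genes, and the removed globin genes could not be called there.

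Among genes outside the red cell list, several were shared with the hs3b-hs4 deletion. Serinc3, a membrane protein that some viruses must overcome, stood at 75.98 CPM in 3'PAL, 66.96 CPM in hs3b-hs4 deletion, 632.4 CPM in 3'RR deletion and 687.9 CPM in wild-type stimulated cells, and at 160.9, 129.1, 763.3 and 854.7 CPM in resting cells in the same order. Pkig, a protein kinase A inhibitor and the next gene on chromosome 2, stood at 34.78, 44.39, 92.4 and 101.5 CPM in stimulated and 29.71, 29.12, 55.02 and 62.74 CPM in resting cells. Both were lower in 3'PAL than in wild type, Serinc3 with a log2 fold change of -2.79 ± 0.24 (adjusted p 0.0143) and Pkig with -1.31 ± 0.15 (0.0241) in edgeR's test. For both, 3'PAL and hs3b-hs4 formed the low pair and 3'RR and wild type the high pair without overlap.

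Ptpn14, a phosphatase that restrains YAP, split the genotypes the same way with the opposite sign. It stood at 21.63 CPM in 3'PAL, 20.84 CPM in hs3b-hs4, 1.586 CPM in 3'RR and 1.866 CPM in wild-type stimulated cells, and at 95.75, 110.6, 22.95 and 20.17 CPM in resting cells, with a log2 fold change of 2.82 ± 0.392 and an adjusted p of 0.0444. Atp9a, a lipid flippase, stood at 14.18, 14.22, 3.577 and 1.373 CPM in stimulated and 14.09, 17.29, 0.8801 and 1.033 CPM in resting cells. Zfp429, a KRAB-type zinc finger gene, stood at 0.8882, 4.569, 12.39 and 11.62 CPM in stimulated and 0.6612, 0.7027, 12 and 11.36 CPM in resting cells, with an adjusted p of 0.0698. In all 3 genes, within each state, 3'PAL and hs3b-hs4 lay on 1 side and 3'RR and wild type on the other.

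Cbx7, a Polycomb subunit, and Apobec3, a deaminase that restricts retroviruses, are neighbours on chromosome 15 whose exons overlap on opposite strands, so their reads may be mixed. Cbx7 stood at 9.497 CPM in 3'PAL, 14.77 CPM in hs3b-hs4, 36.47 CPM in 3'RR and 20.57 CPM in wild-type stimulated cells, and at 27.85, 31.9, 85.55 and 59.04 CPM in resting cells. It was called lower than in wild type (adjusted p 0.041) and than the mean of the other deletions (adjusted p 0.0179) in edgeR's test. In mean log2 level over both states it differed by -1.71 from 3'RR and by -0.388 from hs3b-hs4, so the second call rests mainly on 3'RR. Apobec3 stood at 28.73, 56.09, 165.9 and 92.16 CPM in stimulated and 13.47, 14.17, 182.3 and 92.21 CPM in resting cells, with an adjusted p of 0.158 against wild type. Naip2, a sensor of bacterial secretion systems in a family of similar copies, stood at 4.27, 5.79, 13.86 and 10 CPM in stimulated and 6.323, 10.31, 24.5 and 16.85 CPM in resting cells. In all 3 genes 3'PAL was the lowest of the 4 genotypes in both states.

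A small number of genes set 3'PAL apart from all other genotypes. Atp6v0c, the proton channel subunit of the vacuolar ATPase, stood at 13.6 CPM in 3'PAL, 40.88 CPM in hs3b-hs4, 44.65 CPM in 3'RR and 38.77 CPM in wild-type stimulated cells, and at 23.89, 58.01, 53.9 and 49.91 CPM in resting cells. Its log2 fold change was -1.28 ± 0.153 against wild type (adjusted p 0.0245) and -1.43 ± 0.139 against the mean of the other deletions (adjusted p 0.00716). Ermard, a membrane protein of the endoplasmic reticulum, stood at 53.6, 27.61, 24.3 and 22.11 CPM in stimulated and 58.85, 28.85, 30.31 and 29.63 CPM in resting cells. It was higher by 1.13 ± 0.132 against wild type (adjusted p 0.0241) and by 1.02 ± 0.109 against the other deletions (adjusted p 0.0101). Map7, a microtubule-binding protein, stood at 0.5124, 4.53, 7.301 and 7.642 CPM in stimulated and 1.322, 4.724, 8.66 and 14.08 CPM in resting cells, with adjusted p values of 0.0152 and 0.0136 in the same tests. In each of these genes both 3'PAL libraries lay on 1 side of the other 6.

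**Figure D5:**
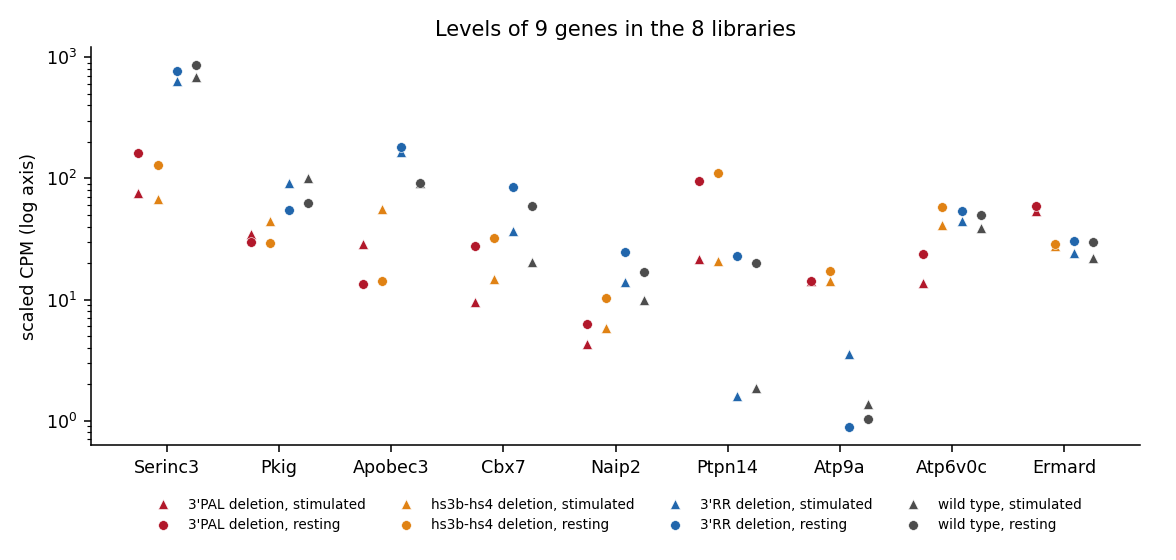
Scaled CPM on a log axis of 9 genes in all 8 libraries, coloured by genotype, with triangles for stimulated and circles for resting cells. Serinc3, Pkig, Ptpn14 and Atp9a have 3'PAL and hs3b-hs4 together and 3'RR with wild type, while Atp6v0c and Ermard have 3'PAL alone on 1 side.

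Against the mean of the other 2 deletions 128 genes (0.928%) were called, 85 higher in 3'PAL (0.616% of the genes tested) and 43 lower (0.312%), and 21 genes were called in the same direction against wild type too. Most of the higher calls lay further from the 3'RR deletion than from hs3b-hs4, and for some of them 3'RR was near 0. Such calls do not set 3'PAL apart from both deletions. In mean log2 level over both states, Wls was 3.933 above 3'RR and 0.147 above hs3b-hs4, and Crim1 1.639 and 0.241. Others were above both, such as Emb by 2.379 and 2.322. Gdpd3, a lysophospholipase D, stood at 29.82 CPM in 3'PAL, 11.93 CPM in hs3b-hs4, 0.3687 CPM in 3'RR and 5.705 CPM in wild-type stimulated cells, and at 68.19, 71.6, 0.9505 and 27.29 CPM in resting cells. Glo1, which detoxifies methylglyoxal, was higher than in both deletions, with 101, 32.02, 34.33 and 68.14 CPM in stimulated and 69.96, 21.2, 22.11 and 33.71 CPM in resting cells (1.65 ± 0.119, adjusted p 0.00292). Against wild type its adjusted p was 0.0904. Cd93, a receptor of immature B cells and plasma cells, was lower than in the deletions. It stood at 14.96, 29.19, 37.02 and 29.47 CPM in stimulated and 11.08, 18.43, 25.42 and 13.97 CPM in resting cells. Of 18 monocyte and macrophage markers 4 were called lower, as were 0.312% of all genes. The markers of that list summed to 451.4, 860.5, 1990 and 601.2 CPM in resting cells in the same order. The part of macrophage content in the lower calls was not tested.

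For other called genes wild type was the lowest genotype. Ftl1, the ferritin light chain, stood at 370.3 CPM in 3'PAL, 359.1 CPM in hs3b-hs4, 475.5 CPM in 3'RR and 109.3 CPM in wild-type stimulated cells, and at 620.2, 716.7, 852 and 265 CPM in resting cells (1.49 log2 fold change, adjusted p 0.0212). Ctla4, an inhibitory receptor also found on B-1 cells, stood at 41.68, 12.92, 32.34 and 8.205 CPM in stimulated and 7.852, 6.129, 8.343 and 1.903 CPM in resting cells (2.20 ± 0.312, adjusted p 0.0456). Wild type was the lowest of the 4 for both genes in both states, and for Ctla4 the hs3b-hs4 level of stimulated cells lay nearer to wild type than to 3'PAL. Mir692-3, which lies inside Ftl2, was higher in wild type than in 3'PAL in both states. A split of reads between Ftl1 and Ftl2 was not tested. Counted over the 49 called genes that carry names, 10 had both other deletions nearer to 3'PAL than to wild type in mean log2 level, 11 had only hs3b-hs4 nearer, 21 only 3'RR and 7 neither. Of the 32 higher in 3'PAL 20 were in the class with only 3'RR nearer. Slc4a1, Ermap and Alas2 of the erythroid list were among them, and so were Aqp1 and Epb4.2. The part of red cell content in this class was not tested. Of the 17 lower 7 were in the class with only hs3b-hs4 nearer.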

How the data were processed

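The authors deposited raw featureCounts counts per gene symbol, and kallisto estimated counts and TPM per transcript. The submitters' processing notes name STAR 2.4.0a, featureCounts (Subread 1.4.6-p1), kallisto 0.42.3, SAMtools, bedtools and the build GRCm38/mm10, without roles or order. The sources used here do not give the strand setting, the annotation version or the unit counted, reads or fragments. Per the labels, libraries were stranded, paired-end and depleted of ribosomal RNA. Among the TPM columns 4 with annotation are shifted against their header names and were read by content, while the library columns were taken by name. In the gene table of 41250 genes, 25075 had a count, 92 spike-in entries had none, and 1 entry without a name (0.00621 to 0.0342% of a library) was left out.

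Counts were scaled by TMM in edgeR 4.0.16 (R 4.3.3, limma 3.58.1), and filterByExpr by state kept 13791 genes. With 1 library per genotype and state no test exists within a state. Over both states edgeR's quasi-likelihood test used all 8 libraries and terms for genotype and for state. This left 3 residual degrees of freedom at a biological coefficient of variation of 15.8%, so the error is the disagreement of genotype effects between states and the effect is taken as equal in both. The response test added a term for stimulated 3'PAL cells (2 residual degrees of freedom). P values were adjusted by Benjamini-Hochberg over the 13791 genes and called under 0.05. The p values measure the spread between these libraries and not between animals. A difference between pools or their backgrounds that is the same in both states cannot be told apart from an effect of the deletion. Scripts were tested on simulated data. Estimated counts summed per gene were rounded before tests. Each Ighm form is 1 kallisto transcript, its coding exons are from GENCODE M21, and promoters are from RefSeq.

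Named were the 10 largest log2 fold changes of each direction among calls with a mean log2 CPM of at least 3 and 1 direction in both states, by the size rule 10 of each direction within a state, for the response 8 up and 8 down, 6 members of each list with the lowest adjusted p, and all constant genes. V, D and J segments, predicted genes and pseudogenes were counted and not named. Some genes that the rule takes are not reported here. Members and the 34 gene lists were chosen with earlier results of these data known. Alternatives tried were other scalings, no filter, DESeq2 1.42.0, kallisto counts, other sizes, CPM minimums and pseudocounts, and each library left out. The comparison with the other 2 deletions in place of wild type was added after seeing the data. No p value is given for any list.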

Additional observations from a re-analysis of the deposited data

Results flagged for a closer look

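Among the genes named for their response, 7 stood higher after LPS in 3'PAL and lower after LPS in wild-type cells, by at least 0.5 on the log2 scale in each. With 1 library per genotype and state the difference between these 2 genotypes was not tested. The response of Irf7 was 1.45 on the log2(CPM + 1) scale in 3'PAL and -2.25 in wild-type cells, a difference of 3.70. For Ifit3 the responses were 1.60 and -2.52, a difference of 4.12, and for Rtp4 1.83 and -1.83, a difference of 3.67. Oas2 (1.73 and -2.84, difference 4.57) and Ifi44 (1.84 and -2.36, difference 4.20) went the same way. In edgeR's test of the 3'PAL response against all 3 other genotypes the unadjusted p was 0.0298 for Irf7, 0.0284 for Ifit3, 0.032 for Rtp4, 0.0959 for Oas2 and 0.0476 for Ifi44, and none passed after adjustment. These 5 are interferon-stimulated genes, and all 5 were higher in resting wild-type than in resting 3'PAL cells.

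The other 2 genes are not on the interferon list. Pydc4, a pyrin domain gene in a family of similar copies, responded by 0.75 in 3'PAL and -3.14 in wild-type cells, a difference of 3.90. It stood at 2.494 CPM in 3'PAL, 5.751 CPM in hs3b-hs4, 35.47 CPM in 3'RR and 10.14 CPM in wild-type stimulated cells, and at 1.074, 1.64, 55.06 and 97.48 CPM in resting cells. Snord49b, a small nucleolar RNA, responded by 1.04 and -3.07, a difference of 4.10, and its level of 32.13 CPM in the resting wild-type library compares with at most 5.466 CPM in the other 7.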

How the results depend on the processing

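Genes called against wild type over both states (62) numbered 40 with total counts only, 313 without a filter on low counts and 241 with DESeq2, and 0 to 96 when each library was left out. Kallisto counts gave 62, of which 32 were higher and 30 lower, and 41 were shared. Against the other deletions (128) there were 429 calls without a filter and 343 with DESeq2, split 212 to 217 and 169 to 174, and 27 to 126 with a library left out. The response test (0 calls) gave 12 without a filter, 28 with DESeq2 and 0 to 13 with a library left out, the 13 without the resting 3'RR library. A size of 1.5 left 138 genes in resting cells (291 before), 64 in stimulated cells (234 before) and 195 for the response (496 before), and a minimum of 20 CPM left 180 in resting cells. With the other 2 deletions in place of wild type, a choice made after seeing the data, 155 genes passed in stimulated cells and 293 for the response, 62 and 141 of them shared with the comparison to wild type, and the resting split was 73 to 169. In that setting the log2 difference reversed for Mir6236 (0.22), Ighg2c (0.43) and Snora7a (0.10) at rest and for Ighg3 (2.82) after stimulation; the cause was not tested. By TPM the secreted share of Ighm was 71.63% and 28.56% in stimulated and resting 3'PAL cells and 83.39% and 35.05% in wild-type cells. For these changes in number the cause was not tested either. Over all alternatives, named genes called against wild type kept their call 140 times and lost it 113 times, and those against the deletions 202 and 78 times, with 0 reversals. No paired analysis was possible because each genotype and state has 1 library, so a replicate number pairs nothing beyond the state, which the test over both states already holds as a term. Depth limits Ighe most, with 2 to 21 counts in these 4 libraries.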

Other observations

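Some metabolic genes stood higher in stimulated 3'PAL cells. Of 22 tested genes of cholesterol synthesis 19 were higher than in wild type, at a median log2 difference of 0.18, and 3'PAL was the highest of the 4 genotypes for 18, where it was the highest for 27.6% of all genes. Insig1, which holds back the cholesterol sensor, stood at 209.3 CPM in 3'PAL and 155 CPM in wild-type stimulated cells and at 79.14 and 80.36 CPM in resting cells. The glycolysis and nutrient uptake genes did not move together: of 22 tested, 14 were higher and 8 lower in stimulated 3'PAL cells, at a median of 0.199. On this list Slc16a3, a lactate exporter, stood at 30.3 CPM in 3'PAL, 1.221 CPM in hs3b-hs4, 4.093 CPM in 3'RR and 6.62 CPM in wild-type stimulated cells, and below 1.4 CPM in every resting library. Its response term had an unadjusted p of 0.00369 in edgeR's test, and no gene passed after adjustment. Aldoa, a glycolytic aldolase, stood at 708.2 and 513.4 CPM in stimulated and 191 and 179.2 CPM in resting cells, so its gap appeared after stimulation.

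A pair of short RNA genes, picked after their values were seen, had their highest level in the resting wild-type library. Mir6236 stood at 13.84 CPM in 3'PAL and 2.078 CPM in wild-type stimulated cells, and at 11.61 and 97.37 CPM in resting cells. Snora7a stood at 22.27 and 13.21 CPM in stimulated and 17.11 and 110.4 CPM in resting cells. Other short RNA genes differed in this: Rprl3 was highest in stimulated 3'PAL cells, at 48.96 CPM, with 22.89 CPM in resting wild-type cells.

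The survival gene Bcl2l1, which erythroid cells also express, stood at 49.98 CPM in 3'PAL and 46.17 CPM in wild-type stimulated cells, and at 59.88 and 9.297 CPM in resting cells. The part of red cell content in its resting level was not tested.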
